A study of Homo sapiens with 6 samples.

Results

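A set of 44 genes that act at the entry of the secretory pathway was followed by RNA-seq in HCT116, a cell line from a human colorectal carcinoma. The genes were chosen by symbol from a written list, and comprised the signal recognition particle and its receptor, the SEC61 channel and its partners, the translocon-associated protein (TRAP) complex, signal peptidase, the oligosaccharyltransferase, the glucosidases that trim its product, the COPII coat and the receptors that load cargo into COPII vesicles. All 44 were among the 26255 gene symbols listed, and all 44 passed the filter on low values, a mean of at least 1 FPKM (fragments per kilobase of transcript, scaled to the number of mapped fragments) over the 6 libraries.

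Proteins bound for the cell surface or for secretion are recognised by the signal recognition particle while they are still being made, and are brought to a receptor on the endoplasmic reticulum (ER). They enter through the SEC61 channel, lose their signal peptide to signal peptidase, and receive N-linked glycans from the oligosaccharyltransferase. Folded cargo then leaves the ER in vesicles coated by COPII. Many genes of this route are known targets of the unfolded protein response, the programme that enlarges the ER when unfolded proteins accumulate.

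The study examined LINC01534, a long noncoding RNA, by silencing it with siRNA, and sequenced RNA to see which genes moved. The 3 groups held 2 libraries each, namely parent HCT116 cells, HCT116 cells given siLINC01534-1 and HCT116 cells given siLINC01534-2. No source says that the parent cells were transfected, and libraries with the negative control siRNA are not analysed here, so transfection itself and the loss of LINC01534 cannot be told apart in any comparison with parent. The time between transfection and RNA extraction and the siRNA dose were not given in the sources used here, and the labels show 2 libraries per group where the methods speak of triplicates.

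LINC01534 itself was close to the limit of detection. It had 0.285 and 0.571 FPKM in the parent libraries, 0 and 0.283 FPKM in those labelled siLINC01534-1 and 0.660 and 0.551 FPKM in those labelled siLINC01534-2. The transcript was thus not seen to be lower in the siLINC01534-2 libraries than in parent, but values this low cannot show whether it was silenced. By qRT-PCR in HCT116 cells, the paper reports that both siRNAs reduced LINC01534 relative to the negative control siRNA. The groups are named by their labels throughout. The epithelial markers EPCAM (199 to 204 FPKM) and KRT8 (1343 to 1730 FPKM) were high in all 6 libraries, whereas CDX1 and VIL1, which mark differentiated intestinal cells, were at or below 0.063 FPKM and CDX2, another intestinal marker, had 6.89 to 9.89 FPKM. Of 7 markers of blood, stromal, endothelial and liver cells, 6 stayed at or below 0.193 FPKM, and COL1A1 had 3.02 to 5.79 FPKM with all 4 siRNA libraries above both parent libraries. Its part in the results was not tested. The libraries were estimated to hold 7.55 to 9.18 M reads (M, reads in units of 1e+06), a rough figure because the files carry no counts. SEC24D, the member with the fewest reads, would have about 277 at its lowest FPKM and the lowest depth of any library. This corresponds to a counting error of 6%. Between the 2 libraries of a group the members differed by a median of 0.034 to 0.055 on the log2 scale, and by 0.195 at most.

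With siLINC01534-1, 31 of the 44 genes were higher than in parent and 1 was lower, where 21.8% of all 12203 tested genes were higher and 24.5% lower (limma on log2(FPKM + 1), adjusted p under 0.05). With siLINC01534-2, 19 genes were higher and 0 were lower, against 11.1% and 11.8% of all tested genes. Averaged over both siRNAs, 31 were higher, or 70.5% of the members, and 0 were lower, against 17.1% and 20.1% of all tested genes. The 31 became 21 to 27 when a library was left out, and of these calls those of SEC24A, RPN2 and GANAB held in 0 of 6 such fits and those of SEC61G and TMED10 in 1. The members are well expressed, the lowest mean being 8.88 FPKM, and among the tested genes with a mean of at least 8 FPKM, a limit chosen after the values were seen, the shares called higher were 23.9% with siLINC01534-1, 13.6% with siLINC01534-2 and 19.6% for the mean of both.

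Most of the increases were small. The median log2 fold change of the members was 0.27 with siLINC01534-1, 0.17 with siLINC01534-2 and 0.21 for the mean of both, while the median over all tested genes lay within 0.0068 of 0 in each of these contrasts. Values for the mean of both siRNAs ran from -0.11 for SEC16A to 1.11 for SEC24D. In 31 of the 44 members all 4 siRNA libraries lay above both parent libraries, where 19% of all tested genes did so. In 1 member, SEC16A, all 4 lay below, where 19.3% of all tested genes did. These are bulk libraries, in which a different mix of cells and a different amount of RNA per cell cannot be told apart.

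Most of the 19 calls with siLINC01534-2 were lost when any library of that comparison was left out. Most of the calls among all tested genes were lost in these fits as well. The median log2 fold change of the members with siLINC01534-2 ran from 0.15 to 0.18 when each library was left out in turn. When the 4 siRNA libraries were fitted as a single group, whose spread then includes the difference between the siRNAs, OSTC alone of the members passed the threshold (adjusted p = 0.046). SEC24D had an adjusted p of 0.056. In that fit 361 of all 12203 tested genes passed the threshold in either direction. SEC24D and OSTC were called higher with each siRNA under each of the 15 alternative settings run for those 2 contrasts.

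**Figure D1:**
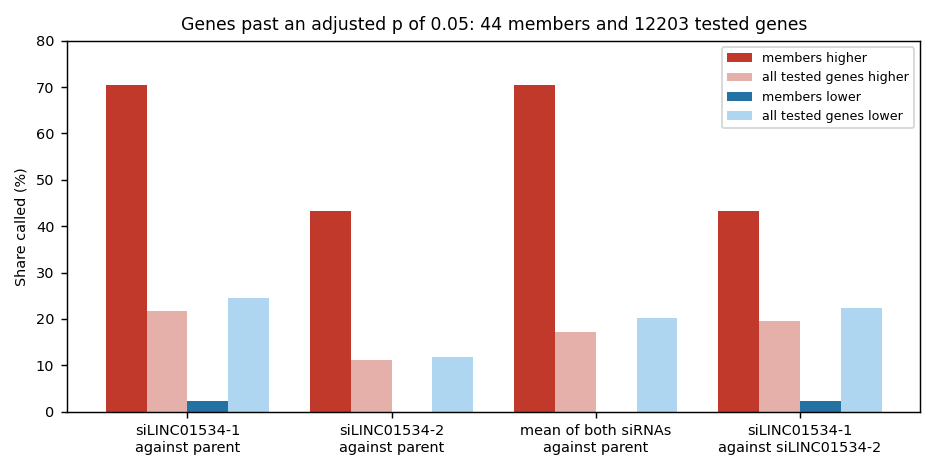
Bars give the percentage of genes past an adjusted p of 0.05, separately for higher and lower, among the 44 secretory entry genes and among all 12203 tested genes, for each contrast. The members reach 70.5% higher with siLINC01534-1 and for the mean of both siRNAs, against 21.8% and 17.1% of all tested genes.

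**Figure D2:**
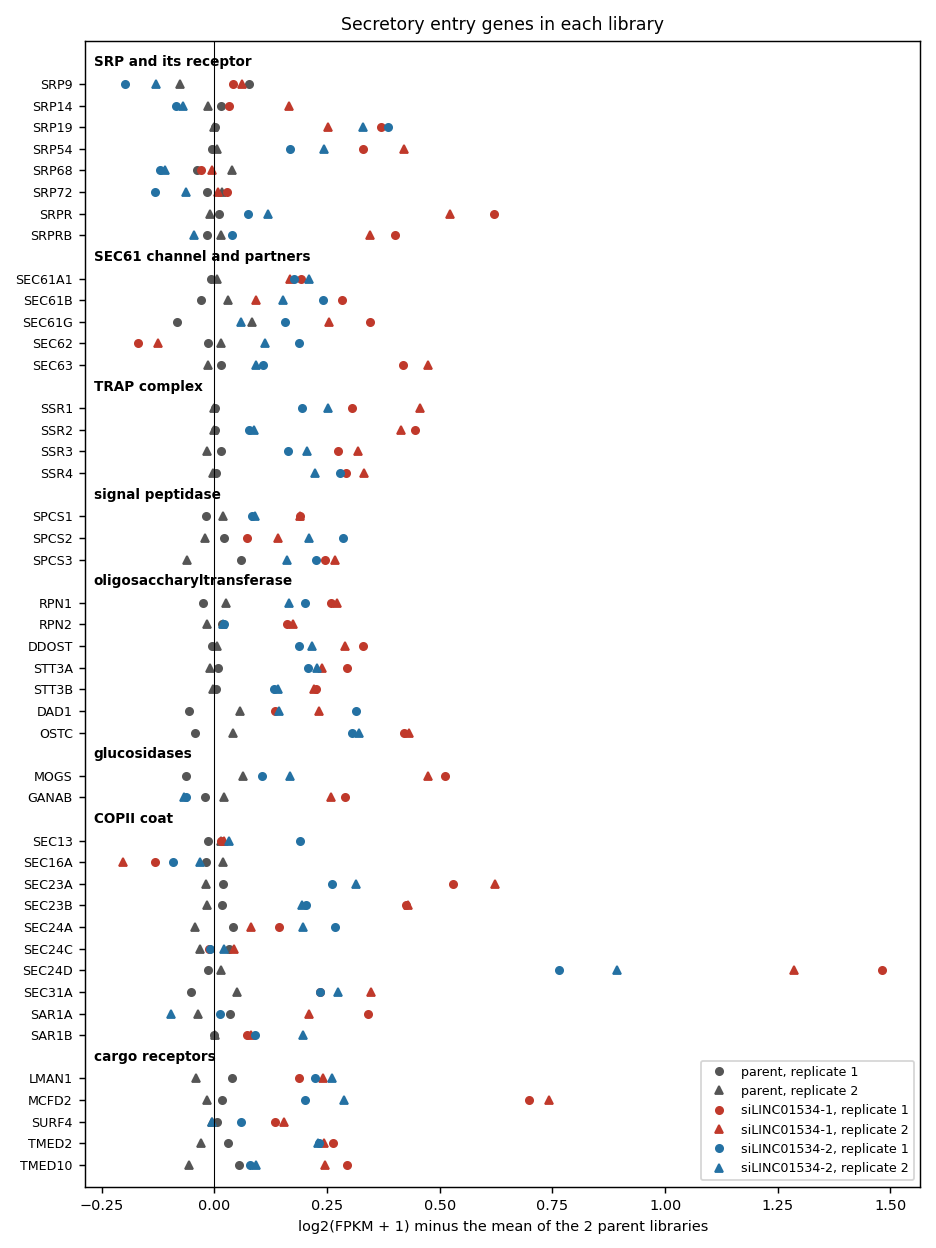
Each point is the value of 1 library as log2(FPKM + 1) minus the mean of the 2 parent libraries, for each of the 44 genes grouped by role (circles, replicate 1; triangles, replicate 2). SEC24D stands farthest to the right in all 4 siRNA libraries, and SEC16A is the gene whose 4 siRNA libraries all lie to the left of both parent libraries.

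The promoters of the members were searched for motifs of the unfolded protein response. RefSeq windows (GRCh38.p14, 250 bases before to 50 bases after the start) were matched for 38 of the 44 members. SRPR, SPCS1, RPN1, STT3B, MOGS and SEC24D had no entry. The core of the unfolded protein response element, TGACGTG on either strand, lay in a window of 9 of the 38 genes (23.7%), namely SRP19, SEC61A1, SEC62, SSR3, SSR4, SEC13, SEC16A, SEC23A and SEC24A. Counted by gene in the same way, it lay in a window of 3.38% of the 9576 tested genes that had one. Counted by window, it lay in 1.97% of all 35116 windows. Stretches of 6 of these 9 genes are shown, among them genes whose RNA was higher with both siRNAs, with 1 or with neither. Those not shown are SEC61A1, called higher with each siRNA, SEC62, called with neither, and SEC16A, called lower with siLINC01534-1. The motif is in capitals on the strand of the gene (CACGTCA is the same motif read on the other strand). Positions are those of the same bases in GRCh37, the build to which the reads were mapped.
SRP19 (chr5:112196853-112196899, plus strand): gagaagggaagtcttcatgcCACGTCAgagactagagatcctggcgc
SSR3 (chr3:156271928-156271974, minus strand): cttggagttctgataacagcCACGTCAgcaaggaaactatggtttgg
SSR4 (chrX:153059975-153060021, plus strand): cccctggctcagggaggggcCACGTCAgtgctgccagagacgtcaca
SEC23A (chr14:39572417-39572463, minus strand): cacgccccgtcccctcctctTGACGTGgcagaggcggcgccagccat
SEC24A (chr5:133984276-133984322, plus strand): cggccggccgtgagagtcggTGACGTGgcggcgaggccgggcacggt
SEC13 (chr3:10362913-10362959, minus strand): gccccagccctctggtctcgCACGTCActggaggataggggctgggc

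The motif began 111 bases before the RefSeq start in SRP19, 40 before it in SSR3, 128 before it in SSR4, 4 before it in SEC23A, 179 before it in SEC24A and 143 before it in SEC13. In the GENCODE annotation of GRCh37 the stretches of SSR3, SEC24A and SEC13 overlapped no exon of their gene, whereas that of SRP19 overlapped an exon in 1 of 12 transcripts, that of SSR4 in 2 of 12 and that of SEC23A in 6 of 15. In 5 of the 6 printed genes, all but SEC13, the motif overlapped or abutted CCACG, the distal part of the ER stress response element. Among the genes not printed, it also did so in SEC62 and SEC16A. It did not in SEC61A1, which was called higher with each siRNA. CCACG by itself, on either strand, was in a window of 31 of 38 members (81.6%) and of 58.2% of the tested genes, and in 38.1% of all windows. The full ER stress response element, CCAAT and CCACG separated by 9 bases, was in a window of 0 of 38 members and in 0.0769% of all windows. Its second form, ATTGGNCCACG, was in a window of 0 of 38 members and in 0.0541% of all windows. The member windows had a median GC content of 63.3% and all windows one of 58.7%.

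The 9 genes with the core motif had a median log2 fold change of 0.18 with siLINC01534-1, where the 29 genes without it had 0.27, and of 0.19 with siLINC01534-2, where those without it had 0.14. For the mean of both siRNAs the medians were 0.19 with the motif, 6 genes being called higher, and 0.20 without it, 19 being called higher. A match is a run of letters in this window and does not show that a factor binds there.

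Within the signal recognition particle the subunits SRP19 and SRP54 rose with each siRNA and the other 4 protein subunits did not pass the test against parent. SRP19, whose promoter stretch is printed above, had 38.7 and 38.6 FPKM in parent, 50.2 and 46.3 FPKM with siLINC01534-1 and 50.8 and 48.8 FPKM with siLINC01534-2, so that no siRNA library overlapped the parent range. Its log2 fold change for the mean of both was 0.33 (SE 0.044, adjusted p = 0.0036). SRP54, the GTPase that binds the signal sequence, had 36.9 and 37.2 FPKM in parent, 46.8 and 49.9 FPKM with siLINC01534-1 and 41.7 and 44 FPKM with siLINC01534-2 (0.29, SE 0.042, adjusted p = 0.0050). SRP14, which with SRP9 forms the part that slows translation, had 206 and 202 FPKM in parent, 209 and 229 FPKM with siLINC01534-1 and 192 and 194 FPKM with siLINC01534-2, a log2 fold change of 0.011 with a 95% interval of -0.097 to 0.12. SRP9, SRP68 and SRP72 had log2 fold changes of -0.056, -0.066 and -0.040, and were called under none of the alternatives in either siRNA.

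Both subunits of the receptor rose with siLINC01534-1. SRPR, the alpha subunit of the receptor (SRPRA in the annotation), had 50.6 and 49.8 FPKM in parent and 77.7 and 72.6 FPKM with siLINC01534-1, a log2 fold change of 0.57 (SE 0.045, adjusted p = 0.00047). With siLINC01534-2 it had 52.9 and 54.6 FPKM, both above parent but not past the threshold (0.096, adjusted p = 0.18). SRPRB, the subunit that anchors it in the membrane, had 41.2 and 42.1 FPKM in parent, 55.4 and 53.2 FPKM with siLINC01534-1 and 42.9 and 40.3 FPKM with siLINC01534-2, the last overlapping parent. Counting particle and receptor together, 4 of 8 genes were higher for the mean of both siRNAs and 0 were lower.

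Of the 5 genes of the SEC61 channel and its partners, 3 rose for the mean of both siRNAs. SEC61A1, which forms the pore, was 1.14-fold its parent level for the mean of both (0.19, SE 0.027, adjusted p = 0.0051) and was called with each siRNA. SEC61G, a small subunit, had 0.20 (adjusted p = 0.048). It was called with siLINC01534-1 (0.30, adjusted p = 0.018) and not with siLINC01534-2 (0.11, adjusted p = 0.32), whose libraries overlapped parent. SEC61B, the other small subunit, had 0.19 (adjusted p = 0.059), which is not past the threshold although all 4 siRNA libraries lay above both parent libraries. SEC62 and SEC63 are the partners that serve post-translational entry. SEC63 had 10.5 and 10.3 FPKM in parent, 14.3 and 14.9 FPKM with siLINC01534-1 and 11.3 and 11.2 FPKM with siLINC01534-2, and rose with siLINC01534-1 (0.45, SE 0.048, adjusted p = 0.0013). SEC62 had 15.1 and 15.4 FPKM in parent, 13.5 and 13.9 FPKM with siLINC01534-1 and 17.5 and 16.6 FPKM with siLINC01534-2. Its siLINC01534-1 libraries lay below parent and its siLINC01534-2 libraries above, without passing the threshold in either case (-0.15, adjusted p = 0.057, and 0.15, adjusted p = 0.083).

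All 4 TRAP subunits, which sit beside the channel and help certain signal sequences to open it, rose for the mean of both siRNAs. SSR1 had 18.8 and 18.7 FPKM in parent, 23.4 and 26.1 FPKM with siLINC01534-1 and 21.6 and 22.5 FPKM with siLINC01534-2 (0.30, SE 0.053, adjusted p = 0.0092). SSR2 had 138 and 138 FPKM in parent, 188 and 184 FPKM with siLINC01534-1 and 146 and 147 FPKM with siLINC01534-2, a step of 0.43 (adjusted p = 0.00033) with the first siRNA and of 0.083 (adjusted p = 0.11) with the second. SSR4 had 136 and 136 FPKM in parent, 167 and 172 FPKM with siLINC01534-1 and 165 and 159 FPKM with siLINC01534-2 (0.28, SE 0.030, adjusted p = 0.0020). In each of the 4 genes every siRNA library exceeded both parent libraries. SSR3 moved least, from 57.7 and 56.5 FPKM in parent to 69.3 and 71.5 FPKM with siLINC01534-1 and 64.1 and 66 FPKM with siLINC01534-2 (0.24, SE 0.032, adjusted p = 0.0038).

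The 3 signal peptidase subunits also rose for the mean of both siRNAs. SPCS1, an accessory subunit, had 115 and 119 FPKM in parent, 134 and 134 FPKM with siLINC01534-1 and 124 and 125 FPKM with siLINC01534-2 (0.14, SE 0.027, adjusted p = 0.013). SPCS2 had a log2 fold change of 0.18 (adjusted p = 0.022) and SPCS3 one of 0.23 (adjusted p = 0.015). SPCS1 and SPCS3 were called with siLINC01534-1 and not with siLINC01534-2 (0.087, adjusted p = 0.10, and 0.19, adjusted p = 0.054). Their direct differences between the siRNAs were 0.10 for SPCS1 (adjusted p = 0.045) and 0.063 for SPCS3 (adjusted p = 0.38). SPCS2 was called with siLINC01534-2 and not with siLINC01534-1 (0.25 and 0.11), but the direct difference between the siRNAs did not pass the threshold (-0.14, adjusted p = 0.059).

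Of the 7 oligosaccharyltransferase genes 6 rose for the mean of both siRNAs, and in all 7 the 4 siRNA libraries lay above both parent libraries. For RPN2 the gap was very small with siLINC01534-2, 135.2 and 134.9 FPKM against 134.7 FPKM in the higher parent library (0.020, adjusted p = 0.67). OSTC, a subunit of the form of the enzyme that works at the channel, had 86.8 and 92 FPKM in parent, 119.9 and 121 FPKM with siLINC01534-1 and 111 and 112 FPKM with siLINC01534-2 (0.37, SE 0.034, adjusted p = 0.0012). STT3A, the catalytic subunit of that form, had 58.5 and 57.8 FPKM in parent, 71.6 and 68.9 FPKM with siLINC01534-1 and 67.4 and 68.3 FPKM with siLINC01534-2 (0.24, SE 0.031, adjusted p = 0.0034). STT3B, the catalytic subunit of the form that glycosylates sites missed during entry, had 62.4 and 62.1 FPKM in parent, 72.9 and 72.7 FPKM with siLINC01534-1 and 68.3 and 68.7 FPKM with siLINC01534-2 (0.18, SE 0.027, adjusted p = 0.0055). Both catalytic subunits therefore moved up without overlap with parent. The shared subunits RPN1 and DDOST had log2 fold changes of 0.22 (adjusted p = 0.0036) and 0.26 (adjusted p = 0.0020). RPN2, the member of this group with the smallest change, had 135 and 132 FPKM in parent, 149 and 150.5 FPKM with siLINC01534-1 and 135 and 135 FPKM with siLINC01534-2 (0.094, adjusted p = 0.040), and its call for the mean of both was lost whichever library was left out. DAD1 was the gene not called (0.21, SE 0.064, adjusted p = 0.052).

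Both genes for the glucosidases that remove the outer glucoses of the new glycan were called with siLINC01534-1 and not with siLINC01534-2, and the direct difference between the siRNAs passed the threshold in each (0.36 for MOGS and 0.34 for GANAB). MOGS, glucosidase I, had 35.1 and 38.5 FPKM in parent, 52.8 and 51.5 FPKM with siLINC01534-1 and 39.6 and 41.4 FPKM with siLINC01534-2, a log2 fold change of 0.49 (SE 0.055, adjusted p = 0.0015) with the first and of 0.14 (adjusted p = 0.13) with the second. GANAB, the catalytic subunit of glucosidase II, had 185 and 190.0 FPKM in parent, 229 and 224 FPKM with siLINC01534-1 and 179 and 179 FPKM with siLINC01534-2, the last pair lying below parent (-0.065, adjusted p = 0.20).

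Of the 10 COPII genes 5 rose for the mean of both siRNAs and 0 fell, and the group held both the largest and the lowest log2 fold change of all 44 genes. SEC24D, a cargo-binding subunit on chr4:119643978-119759838 on the minus strand (GENCODE, GRCh37), had 9.14 and 9.35 FPKM in parent, 27.6 and 24 FPKM with siLINC01534-1 and 16.4 and 18 FPKM with siLINC01534-2. The group means were 9.25 ± 0.15 FPKM in parent, 25.8 ± 2.6 FPKM with siLINC01534-1 and 17.2 ± 1.2 FPKM with siLINC01534-2 (SD, n = 2), or 2.79-fold and 1.86-fold the parent level. The log2 fold change for the mean of both was 1.11 (SE 0.071, adjusted p = 0.00048). The inner coat genes SEC23A and SEC23B, which activate the GTPase of the coat, rose as well. SEC23A had 32 and 31.1 FPKM in parent, 46 and 49.1 FPKM with siLINC01534-1 and 38 and 39.5 FPKM with siLINC01534-2 (0.43, SE 0.041, adjusted p = 0.0014). SEC23B had 52.6 and 51.3 FPKM in parent, 70.1 and 70.3 FPKM with siLINC01534-1 and 59.9 and 59.6 FPKM with siLINC01534-2 (0.31, SE 0.029, adjusted p = 0.0012).

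Smaller values were seen for the other COPII genes. SEC31A, of the outer cage, had a log2 fold change of 0.27 (adjusted p = 0.012), whereas SEC13, its partner in the cage, had 0.065 (adjusted p = 0.34). SEC16A, the scaffold of ER exit sites, had 16.8 and 17.3 FPKM in parent, 15.5 and 14.7 FPKM with siLINC01534-1 and 15.9 and 16.6 FPKM with siLINC01534-2. It was the gene called lower with siLINC01534-1 (-0.17, SE 0.050, adjusted p = 0.041), a call lost when any library was left out, when the replicate numbers were added as a block, without the filter on low values, without the variance trend and when the siLINC01534-1 and parent libraries were fitted alone. SEC24A had 11.3 and 10.7 FPKM in parent, 12.2 and 11.7 FPKM with siLINC01534-1 and 13.4 and 12.8 FPKM with siLINC01534-2 (0.17, adjusted p = 0.043), and its calls for the mean of both and with siLINC01534-2 were lost whichever library was left out. SEC24C had 41 and 39.2 FPKM in parent, 39.7 and 41.3 FPKM with siLINC01534-1 and 39.8 and 40.7 FPKM with siLINC01534-2, with a 95% interval for its log2 fold change of -0.082 to 0.10.

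SAR1 is the GTPase that starts the coat, and its isoforms differed in level. SAR1A had 46.8 and 44.5 FPKM in parent, 58 and 52.9 FPKM with siLINC01534-1 and 46 and 42.6 FPKM with siLINC01534-2, and rose with the first siRNA (0.28, adjusted p = 0.018). SAR1B had 8.37 and 8.39 FPKM in parent, 8.87 and 8.93 FPKM with siLINC01534-1 and 8.98 and 9.75 FPKM with siLINC01534-2, above parent in all 4 siRNA libraries without passing the threshold (0.11, adjusted p = 0.14). SAR1B and SEC24A overlap each other on opposite strands of chromosome 5. The library kit keeps strand, but the strand setting of the counting was not given in the sources used here, so reads of this pair may have been shared. The same holds for the other members that overlap an annotated gene on the opposite strand, such as SRP54 and SEC13. Members such as SRP19, SSR1, SRPRB, STT3A and OSTC overlap an annotated gene on the same strand, where strand cannot separate the reads.

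**Figure D3:**
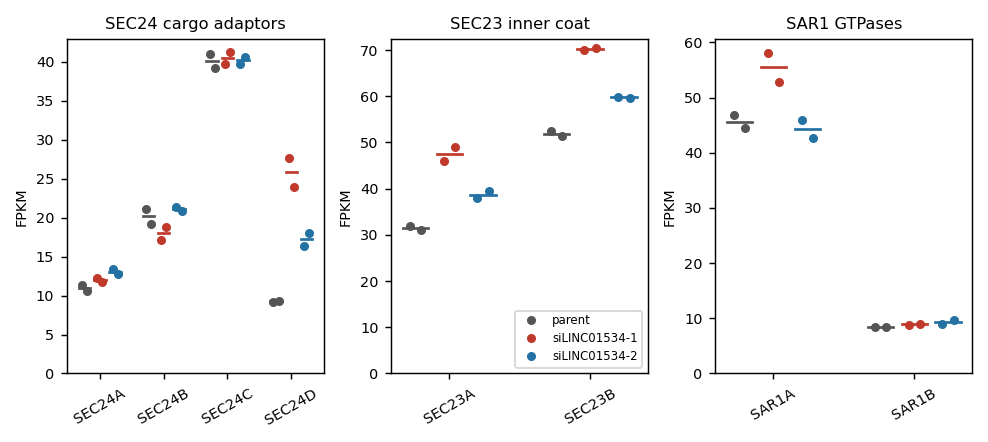
Points are the FPKM of each of the 6 libraries and lines the group means, for the SEC24, SEC23 and SAR1 genes (FPKM on a linear axis from 0). SEC24D rises from 9.14 and 9.35 FPKM in parent to 16.4 to 27.6 FPKM in the siRNA libraries, while SEC24C stays between 39.2 and 41.3 FPKM.

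Within the SEC24 family, SEC24D made up a larger share of the transcripts in all 4 siRNA libraries than in either parent library. As a share of the summed FPKM of SEC24A, SEC24B, SEC24C and SEC24D, a measure per transcript length, SEC24D made up 11.1% and 11.9% in the parent libraries, 28.6% and 25.1% in the siLINC01534-1 libraries and 18.0% and 19.5% in the siLINC01534-2 libraries. The share was 11.3 percentage points higher for the mean of both siRNAs than in parent. An exact permutation test of 4 against 2 libraries gave a two-sided p of 0.133, the smallest that this design allows. Of SEC23A and SEC23B together, SEC23A made up 37.8% and 37.7% in the parent libraries, 39.6% and 41.1% in the siLINC01534-1 libraries and 38.8% and 39.8% in the siLINC01534-2 libraries, 2.06 points higher (exact permutation test, p = 0.133). The STT3A share of both catalytic subunits was 48.3% ± 0.13 in parent, 49.1% ± 0.64 with siLINC01534-1 and 49.8% ± 0.14 with siLINC01534-2 (SD, n = 2 libraries, exact permutation test, p = 0.133). The SAR1A share was 84.5% ± 0.49 in parent, 86.2% ± 0.84 with siLINC01534-1 and 82.5% ± 1.6 with siLINC01534-2 (SD, n = 2 libraries), so that the siRNAs lay on either side of parent (exact permutation test of the mean of both, p = 1).

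Among the cargo receptors, MCFD2 moved most. It is the cofactor of LMAN1, and with it carries coagulation factors V and VIII out of the ER. MCFD2, on chr2:47129009-47168994 on the minus strand, had 35.6 and 34.8 FPKM in parent, 57.7 and 59.6 FPKM with siLINC01534-1 and 40.6 and 43.2 FPKM with siLINC01534-2. It was 1.67-fold the parent level with the first siRNA and 1.19-fold with the second, and its log2 fold change for the mean of both was 0.48 (SE 0.039, adjusted p = 0.00084). LMAN1 had a smaller log2 fold change of 0.23 (SE 0.040, adjusted p = 0.0095) and was called with each siRNA. TMED2 and TMED10, members of the p24 family, had 0.24 (adjusted p = 0.0029) and 0.18 (adjusted p = 0.023). SURF4, the receptor for soluble cargo, had 99.6 and 99 FPKM in parent, 109 and 111 FPKM with siLINC01534-1 and 104 and 98.9 FPKM with siLINC01534-2, and did not pass the threshold for the mean of both (0.086, adjusted p = 0.083).

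The siRNAs were also compared directly, since both are directed at the same transcript. Against siLINC01534-2, 19 members were higher with siLINC01534-1, where 19.5% of all tested genes were, and 1 was lower, where 22.3% were. The 19 came down to 11 without the second siLINC01534-1 library, 12 without the first siLINC01534-2 library and 10 without the second siLINC01534-2 library. Fewer of all tested genes were called too when those libraries were left out. The median log2 difference of the members was 0.11. SEC24D was 1.5-fold higher with siLINC01534-1 than with siLINC01534-2 (log2 difference 0.56, SE 0.082, adjusted p = 0.0045). MCFD2 had a log2 difference of 0.48 (SE 0.045, adjusted p = 0.0011) and SRPR one of 0.48 (SE 0.045, adjusted p = 0.0011). SRPRB (0.38, adjusted p = 0.0024), MOGS (0.36, adjusted p = 0.0052) and SSR2 (0.35, adjusted p = 0.00083) followed. In all 6 of these genes both siLINC01534-1 libraries lay above both siLINC01534-2 libraries. SEC62 was the gene lower with siLINC01534-1 (-0.30, SE 0.049, adjusted p = 0.0067).

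For 24 members no difference between the siRNAs passed the threshold. Some of these intervals were narrow, such as -0.091 to 0.065 for SEC61A1, -0.062 to 0.11 for TMED2 and -0.041 to 0.14 for STT3A on the log2 scale, and others wide, such as -0.19 to 0.17 for SEC61B. Set beside the parent comparison, 17 members were called higher with each siRNA, 14 with siLINC01534-1 alone, 2 (SPCS2 and SEC24A) with siLINC01534-2 alone and 10 with neither, and SEC16A was called lower with siLINC01534-1. In 35 of the 44 members the log2 fold change was above 0 with each siRNA. Over all tested genes it was above 0 in 50% with siLINC01534-1 and in 50.3% with siLINC01534-2, each counted by itself. The shares of all tested genes for both siRNAs jointly were not counted, so these joint counts describe the members only. Both comparisons with parent use the same parent libraries, so their values are not independent of each other.

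**Figure D4:**
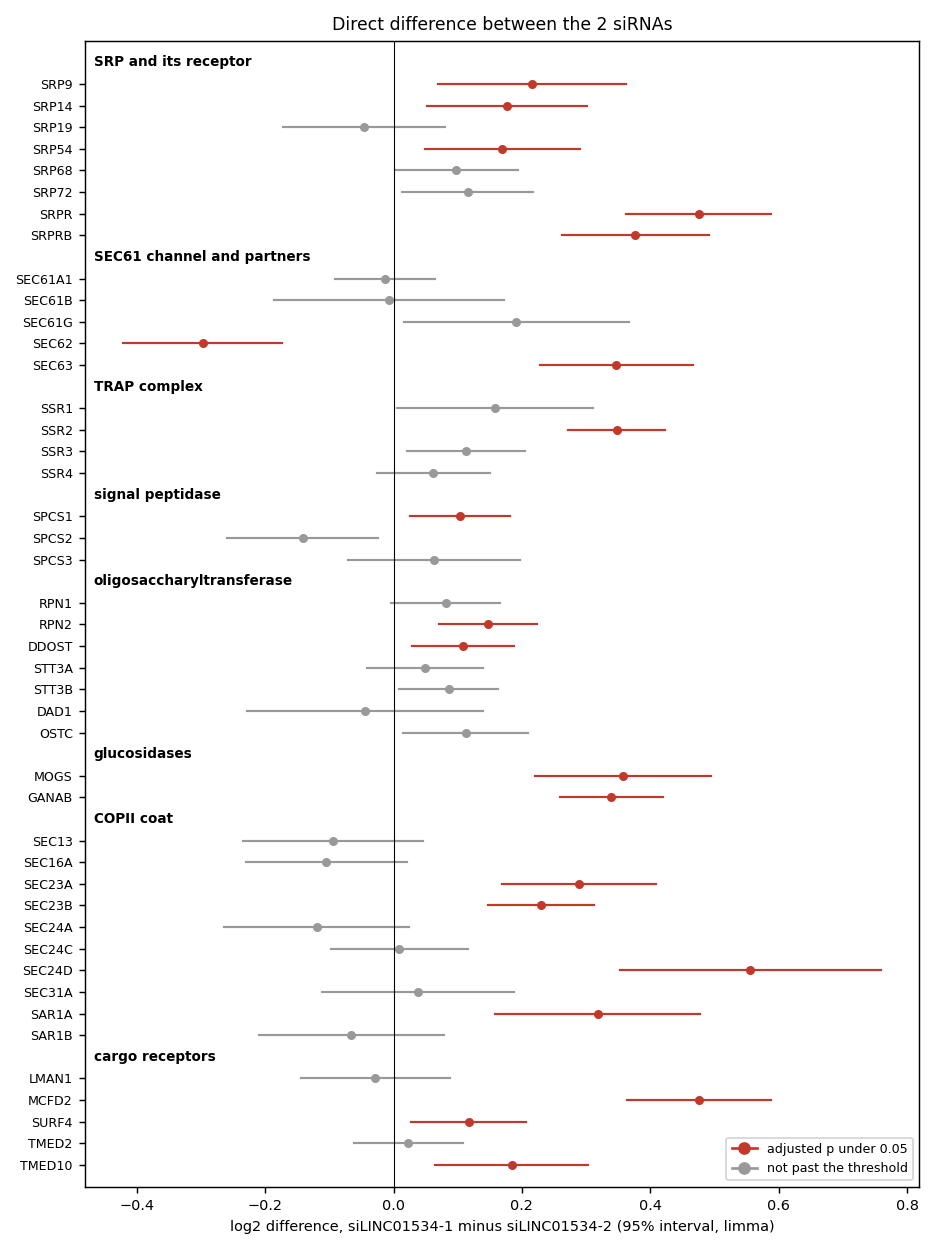
Points give the limma log2 difference of siLINC01534-1 minus siLINC01534-2 for each of the 44 genes and lines its 95% interval, with red for an adjusted p under 0.05. SEC24D (0.56), MCFD2 (0.48) and SRPR (0.48) lie farthest to the right and SEC62 (-0.30) is the gene past the threshold on the left.

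The 3′ UTRs were searched for the sites that the antisense strand of siLINC01534-1 could bind through its seed, bases 2 to 8, as microRNAs do. Its match, GAATAAA, occurred in the 3′ UTR, taken from the longest protein-coding transcript, of 14 of the 44 members (31.8%) and of 3054 of 11135 tested genes (27.4%). GAATAAA contains AATAAA, the signal for polyadenylation, and the sites of SRPRB and SEC16A lie 38 and 26 bases before the annotated transcript end. The sites of the member called lower with siLINC01534-1, of the member lower than with siLINC01534-2 and of 2 members called higher with siLINC01534-1 are shown, in DNA letters with the seed match in capitals.
SEC16A: gcaaattgttGAATAAAatattttgcg
SEC62: gcacaaccatGAATAAAaatacaattc
SRPRB: gagctcatggGAATAAAagtcagtggc
SSR1: gctctgctatGAATAAAaagagatttc
With siLINC01534-1 against parent, the 14 members with a match had a median log2 fold change of 0.18 and the 30 without one 0.28. Over all tested genes these medians were -0.13 with a match and 0.031 without. With siLINC01534-2, which has another seed, the same 2 sets of members had medians of 0.15 and 0.18. The match for siLINC01534-2, TTCGAGT, lay in 0 of 44 members and in 247 tested genes (2.22%). These are medians of genes that differ in 3′ UTR length and base composition, whose part was not tested.

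Of 110 further genes of the translocon, glycosylation and ER to Golgi transport that were tested, 37 were higher and 12 lower for the mean of both siRNAs, where 17.1% of all tested genes were higher and 20.1% lower, with a median log2 fold change of 0.074. The list for glycan trimming and glycoprotein quality control had 7 of 8 genes higher and 1 lower, the further COPII and exit site genes 5 of 10 higher and 1 lower, and the list of further translocon and signal peptidase genes 7 of 20 higher and 1 lower. The lower gene of the last list is TRAPPC1 (-0.33, adjusted p = 0.0013), which belongs to a complex that tethers vesicles and not to the translocon or signal peptidase. The enzymes that build the lipid-linked glycan had 4 of 24 higher and 2 lower, the COPI coat and retrieval genes 5 of 16 higher and 3 lower, the SNAREs between ER and Golgi 3 of 13 higher and 2 lower, and the further cargo receptors and p24 proteins 4 of 14 higher and 2 lower. The list of further oligosaccharyltransferase subunits had 2 of 5 higher and 0 lower. These 5 include OSTCP1, a pseudogene of OSTC that was not called.

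Partners of the COPII coat were among the genes that rose. CTAGE5 and MIA3, which act together at exit sites in the export of collagen, had 11 and 10.7 FPKM and 8.25 and 8.34 FPKM in parent. CTAGE5 had 19.7 and 18.5 FPKM with siLINC01534-1 and 14.7 and 15.6 FPKM with siLINC01534-2 (0.60, SE 0.048, adjusted p = 0.00080). MIA3 had 13.9 and 13 FPKM with siLINC01534-1 and 10.02 and 11.2 FPKM with siLINC01534-2 (0.48, SE 0.059, adjusted p = 0.0030). Both genes were above parent in all 4 siRNA libraries. STX5, the SNARE of fusion at the Golgi, had a log2 fold change of 0.69 (adjusted p = 0.0019), its partner BET1 0.50 (adjusted p = 0.0060), and SEC11C, a catalytic subunit of signal peptidase, 0.56 (adjusted p = 0.00054). ARFGAP3, which acts on the GTPase of the COPI coat, had 0.58 (adjusted p = 0.00095), TRAM1, a neighbour of the channel, 0.42 (adjusted p = 0.0012), and TMED9, of the p24 family, 0.37 (adjusted p = 0.0013).

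Genes of the glycosylation lists rose for the mean of both siRNAs as well. UGGT2, of the family that senses unfolded glycoproteins, had 0.39 (adjusted p = 0.015), ALG2, a mannosyltransferase, 0.34 (adjusted p = 0.0042), MAN1A2, a trimming mannosidase, 0.31 (adjusted p = 0.017), and the oligosaccharyltransferase subunits OST4 and KRTCAP2 0.20 (adjusted p = 0.014) and 0.15 (adjusted p = 0.0099).

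Of the 12 genes lower for the mean of both siRNAs, NUS1, COPZ1 and ERGIC2 had the largest changes in that contrast. NUS1, a subunit of the enzyme that makes the lipid carrier of the glycan, had 31.5 and 30.5 FPKM in parent, 12.7 and 13.6 FPKM with siLINC01534-1 and 31.3 and 32.8 FPKM with siLINC01534-2. ERGIC2 had 31.6 and 28.5 FPKM in parent, 15 and 15 FPKM with siLINC01534-1 and 33.7 and 30.5 FPKM with siLINC01534-2. COPZ1, a COPI subunit, had 132 and 130.4 FPKM in parent, 81 and 71.6 FPKM with siLINC01534-1 and 120.2 and 117 FPKM with siLINC01534-2. The direct difference between the siRNAs passed the threshold in all 3 genes, at -1.23 for NUS1 (adjusted p = 0.00012), -1.04 for ERGIC2 (adjusted p = 0.00039) and -0.63 for COPZ1 (adjusted p = 0.0012) on the log2 scale.

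**Figure D5:**
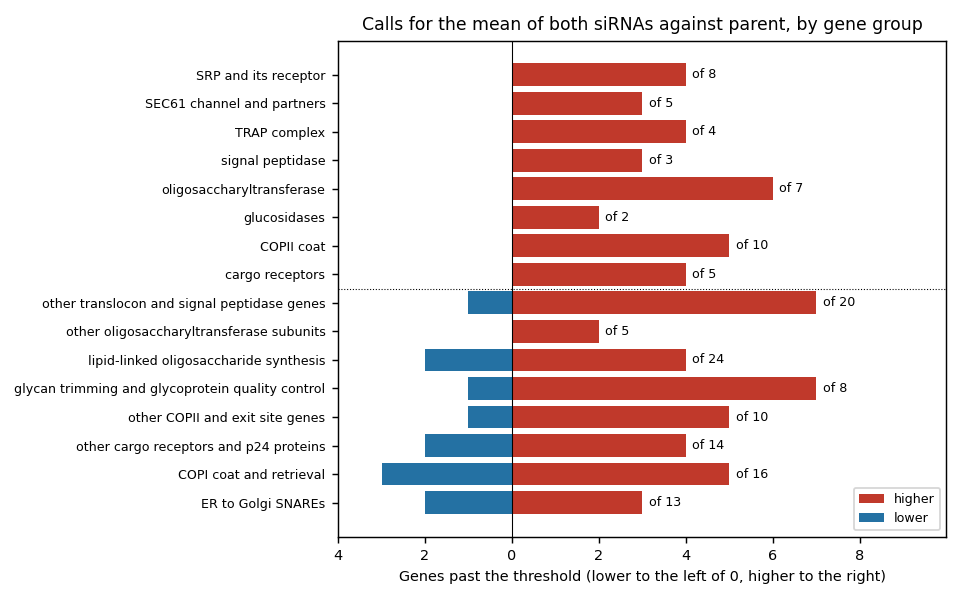
Bars count the genes past an adjusted p of 0.05 for the mean of both siRNAs relative to parent, higher to the right and lower to the left of 0, for the 8 role groups of the 44 genes (above the dotted line) and for the 8 further lists of the pathway (below it), with the number tested beside each bar. The 44 genes above the line have 31 higher and 0 lower and the 110 below it 37 higher and 12 lower, where 17.1% of all tested genes are higher and 20.1% lower.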

How the data were processed

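HCT116 RNA was sequenced from poly(A)-selected, strand-preserving libraries, 2 for parent, 2 for siLINC01534-1 and 2 for siLINC01534-2. Per the labels, the authors mapped reads to hg19 with TopHat2 2.0.13 and Bowtie2 2.2.3, used SAMtools 0.1.19, and obtained the deposited FPKM with Cuffnorm of Cufflinks 2.2.1. The annotation was not given in the sources used here, and the extraction kit named in the labels differs from that in the methods. FPKM are scaled to transcript length and library size, so they carry no counts and hide a change in total RNA. Depth was estimated from what 1 read is worth in 21 to 29 single-transcript genes per library.

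Log2(FPKM + 1) of the 12203 genes with a mean of at least 1 FPKM was fitted with limma 3.58.1 (eBayes with trend, R 4.3.3), with 1 mean per group and all 6 libraries, and p-values were adjusted over all tested genes by the Benjamini-Hochberg method (threshold 0.05, two-sided). This script was tested on simulated data. Fold values given for a gene divide mean FPKM without a pseudocount, and log2 values understate changes of low genes. Shares of paralogues were compared by exact permutation. The methods speak of triplicate cultures, but the labels show 2 libraries per group and do not say that these came from separate cultures. The p-values measure the spread between libraries, which may be technical.

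The members, lists, motifs and tests were chosen with earlier results of these data known. Values of each library are given for the 12 members with the largest change for the mean of both siRNAs, the 6 with the largest difference between siRNAs (both among those past the threshold), paralogues, and the member with the smallest change in each role group. Of each further list at most 2 genes past the threshold are named by rule, and TRAPPC1 is named besides. Of the listed symbols, RN7SL1, RN7SL2, C11orf10, CNIH and COPG had no entry, and TUSC3, SEC16B and COPZ2 were below the filter. C11orf10 is an older symbol of TMEM258, which was tested. Promoter windows came from RefSeq (GRCh38.p14), and gene positions, exons and 3′ UTRs from GENCODE on GRCh37. Alternatives were other pseudocounts, filters, scalings, a replicate block, no variance trend, fewer groups, the siRNA libraries as 1 group and each library left out. Python 3.11.15, pandas 2.3.3, numpy 2.4.6, scipy 1.17.1 and matplotlib 3.10.9 were used.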

Additional observations from a re-analysis of the deposited data

Results flagged for a closer look

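The effect against parent differed between the siRNAs in 20 members, by the limma contrast of siLINC01534-1 minus siLINC01534-2, 19 higher and 1 lower, where 19.5% of all tested genes were higher and 22.3% lower. The share of members that differed in either direction is thus near that of all tested genes. The log2 differences were 0.56 for SEC24D, 0.48 for MCFD2, 0.48 for SRPR, 0.38 for SRPRB, 0.36 for MOGS, 0.35 for SSR2, 0.35 for SEC63, 0.34 for GANAB, 0.32 for SAR1A and 0.29 for SEC23A. They were 0.23 for SEC23B, 0.22 for SRP9, 0.18 for TMED10, 0.18 for SRP14, 0.17 for SRP54, 0.15 for RPN2, 0.12 for SURF4, 0.11 for DDOST and 0.10 for SPCS1, and -0.30 for SEC62. SEC62, SRP9 and SRP14 were called with neither siRNA against parent, although their siRNA groups differed from each other. Groups of 2 libraries are too small for a test of a single library that stands apart.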

How the results depend on the processing

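Under the other settings, values of the named members kept their direction and side of the threshold 1425 times, lost the threshold 152 times, newly passed it 18 times and changed sign 21 times, the last in contrasts without a call. The 4 siRNA libraries as 1 group left 1 of 31 members higher for the mean of both siRNAs, since the spread then includes the difference between the siRNAs. That fit called 361 of all 12203 tested genes in either direction. With siLINC01534-1 the 1 member called lower became 0 without the filter on low values, with the replicate block, without the variance trend, with only the 2 groups compared and whichever library was left out (0 to 0). Against siLINC01534-2, the 19 members higher became 12 without the variance trend and the 1 lower became 2 at a mean FPKM of at least 10. Quantile normalisation gave medians of 0.34 with siLINC01534-1, 0.19 with siLINC01534-2, 0.26 for both and 0.16 between the siRNAs. The median with siLINC01534-2 was 0.15 with a pseudocount of 5 and 0.18 at a mean FPKM of at least 10.

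Leaving out each library in turn gave 27 to 31 members higher with siLINC01534-1, 2 to 17 with siLINC01534-2 and 21 to 27 for both, and 10 to 15 higher and 1 to 2 lower between the siRNAs. In each of these fits fewer of all tested genes were called than in the main fit. The medians of the members ran from 0.24 to 0.27 with siLINC01534-1, from 0.15 to 0.18 with siLINC01534-2 and from 0.19 to 0.22 for both. The SEC24D share was 9.37 to 12.9 percentage points above parent and that of SAR1A -0.94 to 0.85. Sign changes were seen for SEC24C (-0.017 to 0.047 with siLINC01534-1, -0.025 to 0.038 with siLINC01534-2, -0.021 to 0.042 for both and -0.019 to 0.036 between the siRNAs), for SRPRB (-0.045 to 0.040), SURF4 (-0.0057 to 0.060) and SAR1A (-0.096 to 0.012) with siLINC01534-2, for SEC62 (-0.017 to 0.021) and SRP14 (-0.023 to 0.044) for both, and for SRP19 between the siRNAs (-0.10 to 0.012). Quantile normalisation changed the sign of SRPRB with siLINC01534-2 (0.018), SEC62 for both (-0.0041) and SRP19 between the siRNAs (0.021). The cause of these changes was not tested.

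The replicate numbers of the labels did not pair the libraries, the deviations of equally numbered libraries having correlations of 0.11, 0.027 and -0.046. With the replicate block, 31 members were higher with siLINC01534-1, 18 with siLINC01534-2, 28 for both and 14 between the siRNAs. Without counts in the files, depth limits single members only roughly, and 2 libraries per group leave small differences undetected.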
